A study of Mus musculus with 2 samples.

Results

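DNA methylation in mammals is written and removed by a small set of enzymes, and 8 of their genes are described here: Dnmt1, Uhrf1 and Hells, which keep methylation in place when DNA is copied, Dnmt3a and Dnmt3b, which methylate new sites, and the TET dioxygenase genes Tet1, Tet2 and Tet3. The genes were taken by symbol, and all 8 were found among the 19505 named genes measured. Each had 1 probe set, and each lies on a different chromosome. Expression was measured on whole-transcript arrays in macrophages grown from mouse bone marrow, 1 array per genotype. The compared genotypes are labelled LysM (+);MC4RTB/TB, shortened to LysM(+), and MC4RTB/TB, shortened to TB/TB. Both carry the TB form of MC4R, the melanocortin 4 receptor, as the TB/TB label shows, and they differ by LysM. As background, TB alleles hold a removable block to transcription that Cre recombinase can cut out, and Cre driven from the LysM locus (Lyz2) acts in myeloid cells. The labels spell out neither. The sources used here do not give mouse strain, age or the number of mice behind each array. Both cultures were given 25 ng/mL M-CSF, the macrophage growth factor, on days 0 and 3, and were used from day 5 without further treatment, per the labels' protocols.

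UHRF1 binds DNA that carries methyl groups on the old strand alone, as it does behind a replication fork, and brings in DNMT1, which methylates the new strand. HELLS is an ATPase that remodels nucleosomes so that methylation can reach packed DNA, and works with CDCA7. DNMT3A and DNMT3B act without need of replication. TET proteins oxidise methylcytosine, after which the base is lost by dilution through cell division or by repair. In blood cells DNMT3A and TET2 are known for loss-of-function mutations in clonal haematopoiesis, and mouse macrophages without Tet2 are known for stronger inflammatory gene expression.

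The promoters are shown first because each maintenance gene held a short word of the same set there. All 8 genes matched RefSeq promoter entries of GRCm38.p6, with 13 annotated starts in all, and the 250 bases before each start were searched on both strands for the E2F words TTTCCCGC, TTTCGCGC, TTTGCCGC and TTTGGCGC and for CCAAT. E2F factors are known to switch on genes of DNA replication, and CCAAT is the core of the site bound by NF-Y. Each maintenance gene held an E2F word before 1 of its starts (3 of 6 windows), and none of the de novo and TET genes did (0 of 7 windows). Among all 32851 promoter windows 1.86% held an E2F word, and among the 15691 measured genes with a window 2.81% did in at least 1 window. The words were chosen after the windows had been seen, genes with more starts had more windows, and no test was made. A match is a run of letters and was not shown to be a bound site. The sites below are 30 bases each, on the gene's strand, with the E2F word in capitals.

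Uhrf1, 2nd start, chr17:56304117-56304146, plus strand: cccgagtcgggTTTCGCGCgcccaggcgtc
Hells, chr19:38930917-38930946, plus strand: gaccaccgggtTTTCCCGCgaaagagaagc
Dnmt1, 3rd start, chr9:20952824-20952853, minus strand: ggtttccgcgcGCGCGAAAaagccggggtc

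The word began 185 bases before the Uhrf1 start, 62 bases before the Hells start and, on the opposite strand, 219 bases before the Dnmt1 start. None of the 3 overlapped a CCAAT. The windows before the first Uhrf1 start, before the Hells start and before the Tet2 start are given whole below because they stand for the gene with the largest difference of the 8, the maintenance gene whose signal lay within background, and the TET gene furthest from 0. Capitals mark E2F words and CCAAT on either strand.

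Uhrf1, chr17:56303087-56303336, plus strand: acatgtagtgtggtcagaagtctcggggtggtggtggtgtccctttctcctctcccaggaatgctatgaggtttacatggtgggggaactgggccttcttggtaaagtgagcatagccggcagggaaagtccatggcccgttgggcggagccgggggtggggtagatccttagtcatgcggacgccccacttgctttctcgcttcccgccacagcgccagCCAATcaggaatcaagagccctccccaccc
Hells, chr19:38930740-38930989, plus strand: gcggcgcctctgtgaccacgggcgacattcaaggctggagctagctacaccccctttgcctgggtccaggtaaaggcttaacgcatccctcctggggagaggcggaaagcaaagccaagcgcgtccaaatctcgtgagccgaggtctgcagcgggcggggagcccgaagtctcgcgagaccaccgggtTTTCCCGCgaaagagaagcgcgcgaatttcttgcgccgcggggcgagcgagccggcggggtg
Tet2, chr3:133544391-133544640, minus strand: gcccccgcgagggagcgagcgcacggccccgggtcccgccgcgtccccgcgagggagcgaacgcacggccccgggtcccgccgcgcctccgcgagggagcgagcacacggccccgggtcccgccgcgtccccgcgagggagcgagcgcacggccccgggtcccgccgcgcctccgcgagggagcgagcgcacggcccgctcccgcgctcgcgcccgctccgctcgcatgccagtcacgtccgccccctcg

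The Uhrf1 window held 1 CCAAT, 10 CpG and no E2F word. The Hells window held 28 CpG and the E2F word. The Tet2 window held 51 CpG and neither motif, and 83.6% of its bases were G or C. The median over all promoter windows was 6 CpG, so all of these windows lay above it.

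Uhrf1 and Dnmt1 were higher in LysM(+) macrophages, and the other 6 genes were under 1.5-fold apart. To be counted, a gene needed a distance of 1.5-fold or more (0.58 on the log2 scale) and a brighter value of 6.12 or more. That limit is the median over named probe sets of their 2-array means and is called the brightness floor. Of the 8 genes, 6 reached the floor, 2 were counted as higher in LysM(+) and 0 as lower. Among all 10137 genes that reached it, 10.9% were counted as higher and 5.16% as lower. No group had a second array, so no difference has a replicate check, no test was run and each value describes these arrays alone. All folds assume base 2 for the log values, which the sources do not state. Values across the arrays ran up to 19.5, which is high for RMA values on a log2 scale. With another base every fold would change. A set of 23 background control probe sets lay between 3.09 and 6.81.

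Uhrf1, which encodes the reader that recruits DNMT1, had log2 values of 9.38 in LysM(+) and 7.53 in TB/TB. Both values were above the background control range. The difference, LysM(+) minus TB/TB, was 1.85, or 3.59-fold, and ranked 101st from the highest of the 10137 genes. Dnmt1, the maintenance methyltransferase, had 10.43 in LysM(+) and 9.70 in TB/TB. It was thus higher in LysM(+) by 0.73 on the log2 scale, or 1.66-fold, and ranked 703rd. For comparison, the middle 95% of the 10137 genes had differences between -0.76 and 1.13, so the Uhrf1 difference lay outside that range and the Dnmt1 difference inside it. Hells, the remodeller, had 6.70 in LysM(+) and 6.72 in TB/TB, a difference of -0.02. The Hells values passed the floor but lay inside the background control range on both arrays, so its signal was not distinguishable from background and a difference in Hells RNA was not detectable here. The median difference of the 3 maintenance genes, 0.73, is that of Dnmt1, and it was 1.29 without Hells. Over all 10137 genes the median difference was 0.07.

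The de novo methyltransferase genes gave no counted difference. Dnmt3a had 7.03 in LysM(+) and 7.30 in TB/TB, a difference of -0.27, with both values just above the background control range. Dnmt3b had 4.23 in LysM(+) and 4.19 in TB/TB. Dnmt3b was under the floor on both arrays, and its difference of 0.04 has no reading beyond that.

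**Figure D1:**
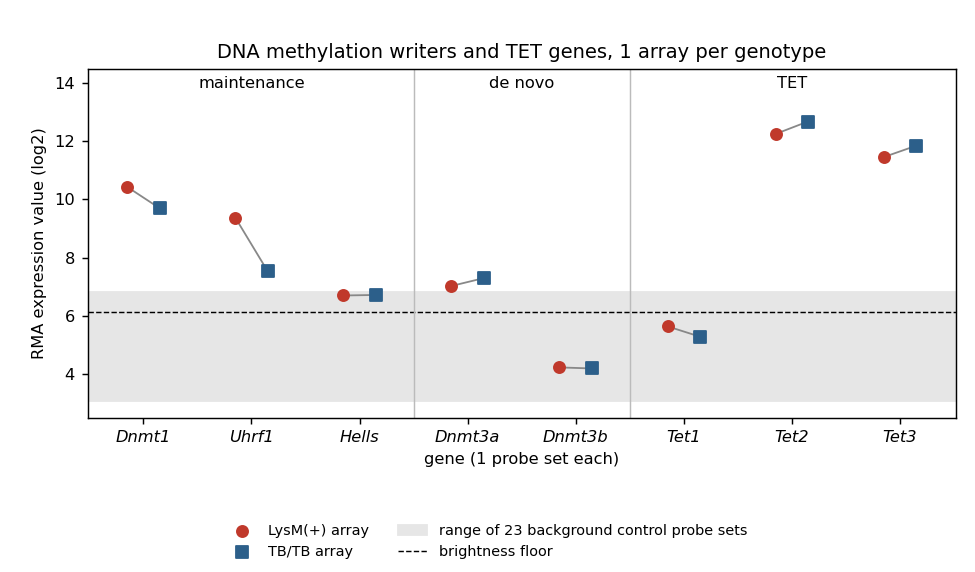
Log2 RMA expression values (vertical axis) of the 8 genes on the LysM(+) array (circles) and the TB/TB array (squares), 1 array each, so there are no error bars. Uhrf1 and Dnmt1 were higher on the LysM(+) array, Tet2 and Tet3 were lower by under 1.5-fold, and Hells, Dnmt3b and Tet1 lay within the grey range of the background controls, from 3.09 to 6.81.

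Tet2 and Tet3 were bright and somewhat lower in LysM(+), but under the 1.5-fold limit. Tet2, the TET enzyme best known in blood cells, had 12.25 in LysM(+) and 12.68 in TB/TB, a difference of -0.43 or 1.35-fold. Tet3 had 11.46 in LysM(+) and 11.85 in TB/TB, a difference of -0.39 or 1.31-fold. Counted from the lowest difference, Tet2 ranked 1016th and Tet3 1174th of the 10137 genes, so about 10.0% and 11.6% of genes were as low or lower. Tet1, known for its role in embryonic stem cells, had 5.64 in LysM(+) and 5.28 in TB/TB. Both Tet1 values were under the floor, and the difference of 0.35 is not read as one in the opposite direction from Tet2 and Tet3. The median difference of the 5 de novo and TET genes was -0.27, which is 1.00 below that of the 3 maintenance genes on the log2 scale, a gap between medians of 3 and 5 genes on the same pair of arrays. Over the members above the background control range on both arrays, without Hells, Dnmt3b and Tet1, the gap was 1.68. Set gene against gene, the log2 difference of Uhrf1 exceeded that of Tet2 by 2.27, and that of Dnmt1 exceeded it by 1.16.

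**Figure D2:**
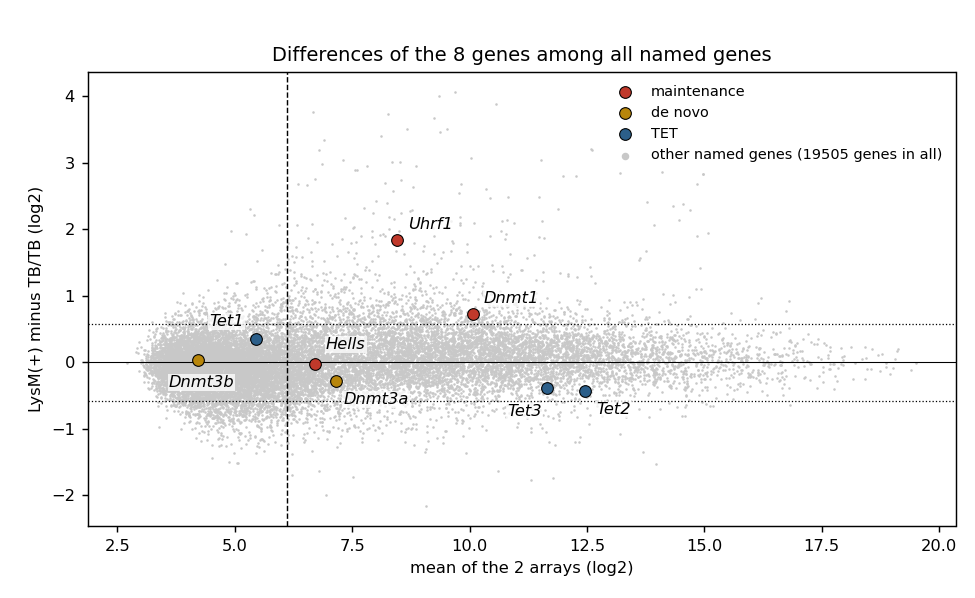
Difference between the arrays (LysM(+) minus TB/TB, log2, vertical axis) against the mean of the arrays (log2, horizontal axis) for 19505 named genes (grey) and the 8 genes (coloured by role). Dotted lines mark 1.5-fold and the dashed line the brightness floor of 6.12. Uhrf1 at 1.85 and Dnmt1 at 0.73 lie above the upper dotted line, and the other 6 genes lie between the dotted lines.

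Replication and division genes were higher in LysM(+), as Uhrf1 and Dnmt1 were. Of 14 measured S-phase genes, 13 were counted as higher in LysM(+) and 0 as lower, with a median difference of 1.83. All 11 measured genes of G2 and mitosis were counted as higher, with a median difference of 2.63. Over all genes that reached the floor, 10.9% were counted as higher and 5.16% as lower. Both lists were chosen with earlier results of these data known. Among the S-phase genes, 7 had a larger difference than Uhrf1 and 7 a smaller one. The TB/TB values of Gins1, Cdc6, Pola1 and Gins2 lay within the background control range, so their differences are not exact. The LysM(+) value of Pola1, 6.23, lay within that range too, so its counted difference rests on background-level signal. Of the 10 S-phase genes above that range on both arrays, 6 had a larger difference than Uhrf1 and 4 a smaller one. Dnmt1 had a smaller difference than 13 of the 14, with Cdt1, a replication licensing factor at 0.55, below it. Dnmt3a, Tet2 and Tet3 had smaller differences than all 14. The values of Hells, Dnmt3b and Tet1 lay within the background control range, so their differences are not ranked against the S-phase genes. Rrm2, a ribonucleotide reductase subunit, had the largest S-phase difference at 3.47, and Prim1, Gins1 and Tyms followed at 2.09, 2.06 and 2.02. Of the mitotic genes, Plk1, Ccnb2, Cdk1 and Bub1 had the largest differences, from 2.98 to 4.01. The TB/TB values of Cdk1 and Bub1 were under the floor, and those of Top2a, Aurka and Birc5 lay within the background control range. The differences of these genes are thus not exact. Over the 6 genes of G2 and mitosis above that range on both arrays, the median difference was 2.72. In RNA from whole cultures, fewer cells of a kind and less RNA per cell cannot be told apart. The part of cell division in the Uhrf1 and Dnmt1 differences was not tested.

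The genes nearest to Uhrf1 in difference were Ccne2, the G1/S cyclin gene, at 1.85 with its TB/TB value of 6.36 within the background control range, Rrm1, the other ribonucleotide reductase subunit, at 1.86, and Tmpo, a nuclear lamina gene, at 1.83. They were chosen as the 3 closest among 9050 named genes at or above the floor on both arrays, and 8 of these lay within 0.05 of Uhrf1. The 9050 leave out the 8 genes of this report and genes with predicted or clone-type names. For Dnmt1 the closest were Snx9, Tfpi and Dnajc19, all at 0.73, with 171 genes within 0.05, and for Hells they were Il18rap, Slx1b and Kpna1, all at -0.02, with 1034 genes within 0.05. Likeness over 2 arrays is a single difference, and for Dnmt1 and Hells many genes share it. Of the 16 measured genes that flank the 8 on their chromosomes, 0 were counted as higher and 2 as lower. The lower ones were Tbc1d12 beside Hells at -0.62 and Dtnb beside Dnmt3a at -0.59. The shares over all genes that reached the floor were 10.9% higher and 5.16% lower. Arrdc5 beside Uhrf1, at 3.77 in LysM(+) and 3.97 in TB/TB, was too dim to be counted. So were Cyp2c55 beside Hells, Pomc beside Dnmt3a and Cxxc4 beside Tet2. Kdm4b beside Uhrf1, and Ppan and S1pr2 beside Dnmt1, reached the floor and were not counted.

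Of 8 measured partners of maintenance methylation, Pclaf, Pcna and Lig1 (3 genes) were counted as higher in LysM(+) and 0 as lower. Among all genes that reached the floor, 10.9% were counted as higher and 5.16% as lower. The median difference of the partners was 0.30. That median was 0.87 over members at the floor on both arrays and 0.57 over members above the background control range on both. Pclaf, a PCNA-binding protein that helps to bring DNMT1 to replicating chromatin, had 9.87 in LysM(+) and 7.60 in TB/TB, a 4.83-fold difference. Pcna, the sliding clamp that DNMT1 binds, had 16.59 in LysM(+) and 15.69 in TB/TB, or 1.86-fold. Lig1, the ligase of lagging-strand synthesis whose methylated form UHRF1 binds, had 7.69 in LysM(+) and 6.81 in TB/TB, where it was at the edge of the background range. Uhrf2, the paralogue of Uhrf1, and Usp7, the deubiquitinase that binds UHRF1 and DNMT1, were bright and differed by 0.24 and 0.17. Cdca7, the HELLS partner, was under the floor on both arrays at 4.98 in LysM(+) and 5.19 in TB/TB. Zbtb24, known to control Cdca7, reached the floor in LysM(+) alone, at 6.18 against 5.82 in TB/TB.

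Among 8 genes that guide de novo methylation, 2 were counted as higher and 0 as lower, with a median difference of 0.03. The shares over all genes that reached the floor were 10.9% higher and 5.16% lower. Nsd2, which methylates histone H3 at lysine 36, had 10.43 in LysM(+) and 9.19 in TB/TB, or 2.36-fold. Kdm1b, a histone demethylase needed for methylation of imprinted genes in mouse oocytes, had 7.82 in LysM(+) and 7.21 in TB/TB, or 1.53-fold. The other lysine 36 enzymes on the list, Nsd1 and Setd2, differed by 0.02 and 0.03. Dnmt3l, the catalytically inactive partner of DNMT3A, was under the floor on both arrays at 4.41 in LysM(+) and 4.28 in TB/TB.

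**Figure D3:**
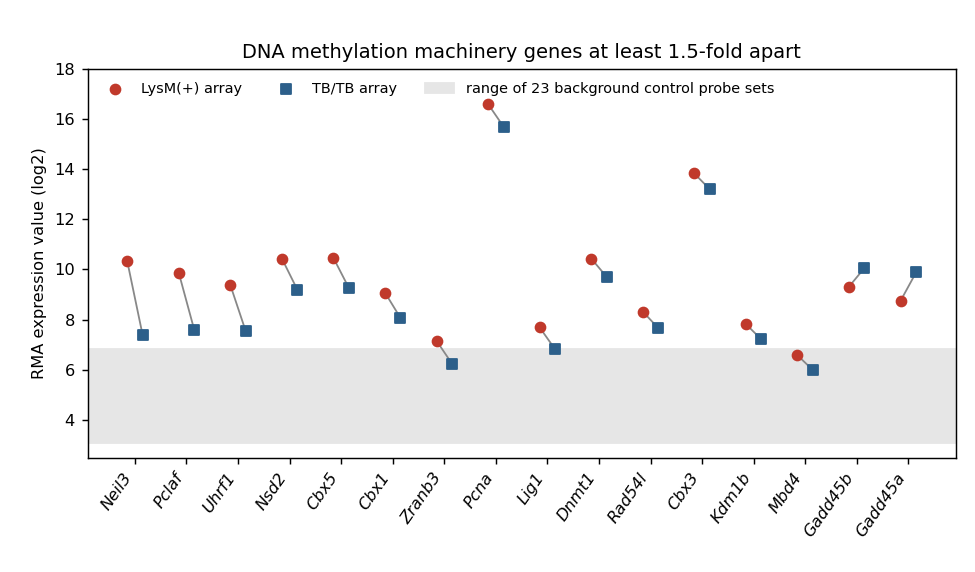
Log2 RMA expression values (vertical axis) on the LysM(+) array (circles) and the TB/TB array (squares) for Uhrf1, Dnmt1 and the counted genes of their partner, reader, repair, heterochromatin and SNF2 lists, ordered by difference. Of these, Gadd45a and Gadd45b alone are lower on the LysM(+) array, by 1.13 and 0.74, and Neil3 has the largest difference, 2.96.

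Genes linked to demethylation and repair were counted in both directions. Of 13 measured, 1 was counted as higher and 2 as lower, with a median difference of 0.08. Over all genes that reached the floor, 10.9% were counted as higher and 5.16% as lower. With counts this small, nothing is read into the list as a whole. Neil3, a DNA glycosylase known to be expressed in dividing cells, had 10.34 in LysM(+) and 7.38 in TB/TB, or 7.78-fold. Gadd45a, a stress-response gene that has been linked to active demethylation, had 8.75 in LysM(+) and 9.88 in TB/TB, 2.19-fold lower in LysM(+). Gadd45b, its paralogue, had 9.31 in LysM(+) and 10.06 in TB/TB, 1.68-fold lower in LysM(+). The third paralogue, Gadd45g, differed by -0.13. None of 13 measured TET partners and 2-oxoglutarate genes was counted (0 genes), with a median difference of 0.05. That list included Ogt, the glycosyltransferase that binds TET2 and TET3, at -0.23, and Spi1, the PU.1 gene that binds TET2, at 0.05. None of 10 measured genes of the methionine cycle, which supplies the methyl donor, was counted either (0 genes), and their median difference was 0.11.

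Among genes for proteins that bind methylated DNA or methylated histone H3, the HP1 genes were higher in LysM(+). Of 7 measured methyl-CpG readers, 1 was counted as higher and 0 as lower, with a median of 0.16, against 10.9% of all genes counted as higher. That gene was Mbd4, a thymine glycosylase, at 6.58 in LysM(+) and 5.98 in TB/TB, both within the background range, so its 1.51-fold is not exact. Of 7 measured genes for lysine 9 methylation of histone H3 and its HP1 readers, 3 were counted as higher and 0 as lower. The median of that list was 0.46, and 10.9% of all genes were counted as higher. These 3 were the HP1 genes. Cbx5 (HP1 alpha) was 2.29-fold, Cbx1 (HP1 beta) 2.01-fold and Cbx3 (HP1 gamma) 1.55-fold higher in LysM(+). The methyltransferase genes on that list did not reach 1.5-fold, with Ehmt2 at -0.38 and Ehmt1 at 0.46. Of 19 measured SNF2 ATPases, the family of Hells, 2 were counted as higher and 0 as lower, with a median of 0.18, a share near the 10.9% of all genes counted as higher. They were Zranb3, a fork remodeller, at 1.88-fold with its TB/TB value of 6.24 within the background range, and Rad54l, a recombination motor, at 1.58-fold.

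**Figure D4:**
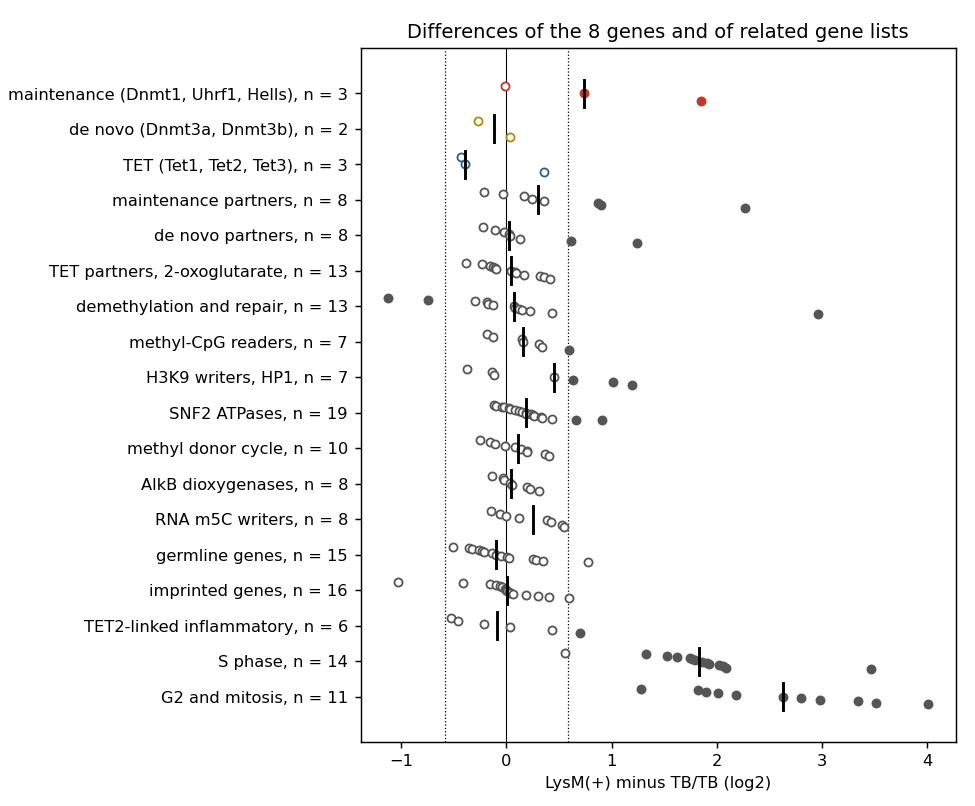
Difference between the arrays (LysM(+) minus TB/TB, log2, horizontal axis) of each measured gene in the 3 groups of the 8 genes and in 15 related lists. Filled points were counted as at least 1.5-fold apart with the brighter value at the floor, open points were not, black bars are medians, and dotted lines mark 1.5-fold. The S-phase and G2 and mitosis medians, 1.83 and 2.63, stand above all other medians plotted, followed by the maintenance median of 0.73.

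Germline and imprinted genes, whose expression is known to depend on DNA methylation, showed no counted difference, but most were under the floor and could not be counted. Among those under it, Stk31 differed by 0.77, Mest by 0.60 and Sgce by -1.04, which rest on background-level signal. Of 15 germline genes with methylated promoters in somatic cells, 14 were under the floor on both arrays, 0 were counted and the median difference was -0.10. Of 16 measured imprinted genes, 4 reached the floor, 0 were counted and the median difference was 0.00. Of 6 inflammatory genes reported under TET2 control in macrophages, 1 was counted as higher and 0 as lower. Over all genes that reached the floor, 10.9% were counted as higher and 5.16% as lower. The counted gene was Cxcl2, a neutrophil chemokine, with 8.19 in LysM(+) and 7.49 in TB/TB. Il1b and Nlrp3 differed by -0.53 and -0.46, and Il6 was under the floor on both arrays.

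The cells carried macrophage RNA on both arrays. All 7 measured macrophage markers reached the floor, 0 were counted, and their mean log2 value was 16.07 in LysM(+) and 16.28 in TB/TB. Lyz2, which names the LysM allele, had 18.86 in LysM(+) and 19.04 in TB/TB. By any amount, 6 of the 7 macrophage markers were lower in LysM(+), with a median difference of -0.20. Of 7 measured neutrophil markers 2 were counted as higher in LysM(+) and 0 as lower, against 10.9% and 5.16% of all genes that reached the floor. By any amount 6 neutrophil markers were higher, among them Camp, which was under the floor on both arrays, and Mpo was lower at -0.30. By any amount, 57.1% of genes that reached the floor and 49.3% of all named genes were higher. The counted markers were Ltf at 2.60-fold and Elane, whose TB/TB value of 6.46 lay within the background control range, so that its 2.26-fold is not exact. The neutrophil list's mean log2 value was 10.87 in LysM(+) and 10.37 in TB/TB. The part of such cells in the Uhrf1 and Dnmt1 differences was not tested. Of the progenitor markers 1 of 6 reached the floor, of the lymphoid markers 0 of 7, and of the erythroid, fibroblast and endothelial markers 3 of 5, with 0 counted in any of these lists.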

How the data were processed

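Per the submitters' processing notes, the authors made the deposited expression values, taken here as log2 values, with RMA in Affymetrix Expression Console. RMA is background correction, normalization between arrays and a summary per probe set. The sources used here give neither versions nor the log base, and base 2 was assumed from the method. Biotin-labelled total RNA was hybridised to 1 array per genotype, and the genotype label gave the groups. The number of arrays limits the precision, and nothing gives an error between samples. Once sorted, the columns lay within 0.16 of each other.

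The platform annotation gave 1 gene symbol for 19572 of the 28846 probe sets and several for 0. All 19572 matched the RefSeq gene table of GRCm38.p6 by Entrez ID and gave 19505 genes, the mean being taken over probe sets of a gene. The 9274 others, controls included, were used only for the background controls and quantile normalization. For 39 genes both values were identical to those of another gene, in every deposited digit, and 0 of these were among the 8. Differences, counts and ranks were computed in Python 3.11.15 with pandas 2.3.3, and loess with statsmodels 0.14.6 (span 0.4). The procedure was run on simulated data with set shifts well beyond 1.5-fold and little noise. That run checks the computation and does not show how counts near 1.5-fold behave on real arrays. No test was run. The 8 genes and the lists (222 further genes, 195 of them measured) were chosen with earlier results of these data known. Genes named are the 8, up to 4 counted members of each list with the largest differences, and the 3 genes nearest in difference to each maintenance gene. Other genes named were chosen after their values were seen. Members of a list with no value were not analysed here. Alternatives were centring, quantile normalization, loess, the brightest probe set and other floors.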

Additional observations from a re-analysis of the deposited data

How the results depend on the processing

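The difference of each of the 8 genes stayed on its side of 1.5-fold under centring, quantile normalization, loess and the brightest probe set. Dnmt1 ranged from 0.63 to 0.74 and Uhrf1 from 1.77 to 1.85, Tet2 from -0.51 to -0.42 and Tet3 from -0.48 to -0.38, and under each of these settings 2 of the 8 genes were counted as higher and 0 as lower. Hells, near 0, took either sign, from -0.02 to 0.02. Of 150 alternative values over all results, 138 kept their side of 1.5-fold and moved by at most 0.1 (for counts, by at most 1.5 times), 12 did not, and none changed the sign of a counted difference (0 values). All 12 came from leaving out dim genes or removing the floor, which changes the genes that enter. With members at the floor on both arrays alone, the medians were -0.39 for the de novo and TET genes, 0.87 for the maintenance partners, 0.38 for the RNA methylation genes, 0.26 for the germline list (1 gene), -0.21 for the TET2-linked genes and 2.18 for G2 and mitosis. A limit at the top of the background controls was added after the data were seen. With it the maintenance median, then without Hells, was 1.29, the de novo and TET median -0.39, the maintenance partner median 0.57, the germline median 0.26 and the TET2-linked median -0.21. With no floor, 1075 genes were counted as lower, against 523 with it. No paired analysis was possible because each group had 1 array. Signal over background limits what can be said of Hells, Dnmt3b, Tet1 and Cdca7.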

Other observations

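Relatives of the methylation enzymes that act on RNA or on other bases gave no counted difference. Trdmt1, which has the fold of a DNA methyltransferase and methylates transfer RNA, had log2 values of 6.43 in LysM(+) and 5.90 in TB/TB. Its difference of 0.53 rests on background-level signal, since both values lay within the range of the background controls. Among the 8 RNA methylcytosine writers the median difference was 0.25, with 0 genes counted, and Nsun6 and Nop2 differed by 0.54 and 0.42. The 8 measured AlkB-type dioxygenases, which use the same cofactor as the TET enzymes, had a median difference of 0.04 and 0 genes counted. The floor was reached by 6 of the RNA methylation genes and by all 8 AlkB genes. Over all genes that reached it, 10.9% were counted as higher and 5.16% as lower. With lists this small, nothing is read into the 0 counts.

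The E2F words were also looked for in the genes of division. Of the S-phase genes with a promoter window, 4 of 11 held one, and of the G2 and mitosis genes 1 of 10, while CCAAT stood in 8 of 11 and 9 of 10. Among measured genes with a window, 2.81% held an E2F word and 39.2% a CCAAT. Of the maintenance partners with a window, 1 of 7 held an E2F word and 4 of 7 a CCAAT. The words were chosen after the windows of the 8 genes had been seen, and no test was made. Hells held an E2F word too. Its signal lay within the background control range, so its difference of -0.02 is not set against the word.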
